A study of Homo sapiens with 6 samples.

Results

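MYC, its partner MAX and the proteins that compete with MYC for MAX were followed in PANC1, an established human pancreatic carcinoma cell line, after gemcitabine, a nucleoside analog that blocks DNA synthesis. The group was taken as a fixed list of 10 genes (MYC, MAX, MXD1, MXI1, MXD3, MXD4, MNT, MLX, MLXIP and MGA), found by Ensembl identifier among the 20461 protein-coding genes of the RNA-seq table, and all 10 passed the filter on low counts. RNA-seq compared 2 libraries of PANC1 cells given vehicle (0.1% DMSO) with 2 libraries of PANC1 cells given 50 nM gemcitabine, each for 48 h, and DNaseI-seq, which maps open chromatin, had 1 library per condition. No transgene or deletion was involved, and a single line stands for the tumor type. Replicates were described as biological. p-values set the difference between conditions against the spread between those libraries, which the fits estimate with the help of all genes.

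MYC is a transcription factor that binds DNA as a dimer with MAX at the E-box, whose letters are CACGTG, and drives genes for ribosome assembly, nucleotide synthesis and cell division. The MXD proteins (MXD1, MXI1, MXD3 and MXD4) and MNT also pair with MAX at these sites, but recruit the SIN3 histone deacetylase corepressor. MLX pairs with some of the MXD proteins, with MNT and with MLXIP (MondoA), a sensor of sugar phosphates. MGA is a large MAX partner that belongs to a Polycomb complex. In pancreatic carcinoma MYC is a well known growth driver.

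The E-box itself stood in the promoter windows of 3 of the 9 genes of the group that had a RefSeq window (250 bases before to 50 bases after a start, 14 windows), namely MXD4, MNT and MLX. By window, 3 of the 14 in the group held it, beside 2548 of 35116 windows over all genes (7.26%). By gene, it stood in a window of 12.2% of the 11460 tested genes that had one. The stretches around it are shown because they are the network's own recognition site in promoters of its members. They are RefSeq sequences matched exactly to hg19, read 5′ to 3′ on the strand of the gene, with the E-box in capitals. CACGTG reads the same on both strands.
MXD4 (chr4:2264029-2264086, minus strand): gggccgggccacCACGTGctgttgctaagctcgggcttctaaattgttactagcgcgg
MNT (chr17:2304502-2304587, minus strand): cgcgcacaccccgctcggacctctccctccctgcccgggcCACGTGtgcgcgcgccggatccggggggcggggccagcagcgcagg
MLX (chr17:40719028-40719113, plus strand): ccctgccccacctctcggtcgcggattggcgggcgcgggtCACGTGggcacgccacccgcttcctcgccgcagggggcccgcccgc
The E-box began 238 bases before the start in MXD4, 193 bases in MNT and 50 bases in MLX. The related letters CACGCG, on either strand, stood in 3 of the 14 windows (of MXD3, MXI1 and MGA) and in 11.4% of all windows. A match is a description of letters only, and binding was not measured.

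The libraries held 13194535 to 15766232 fragments. By these totals, a count of 3 fragments corresponded to 0.190 to 0.227 CPM (fragments relative to library size). The CPM values used below also carry the TMM scaling factors. The keratin genes KRT7, KRT8 and KRT18 and the mesenchymal marker VIM were high in every library, with KRT7 between 1491 and 1658 FPKM (fragments scaled by transcript length and library size), whereas KRT19 (3.05 to 6.91 FPKM) and EPCAM (2.09 to 4.29 FPKM) were low. Of the 8 carcinoma markers, 5 were higher after gemcitabine (KRT8, KRT18, KRT19, LGALS3 and S100A6), beside 18.5% of all genes tested (edgeR). Only 1 was lower (KRT7), beside 20.0% of all genes, and 2 did not pass. KRT19, with 45 and 45 fragments after vehicle and 94 and 88 after gemcitabine, was called higher at 2.18-fold, beside 5.69% of all genes. The summed level of the 8 carcinoma markers was 4664 and 4308 FPKM after vehicle and 5193 and 5286 FPKM after gemcitabine. The part of this in the results below was not tested. Of the 8 markers of other cell types in the table, CD3E, ALB, INS and PRSS1 were listed at 0 in every library and the leukocyte gene PTPRC reached at most 0.313 FPKM. The fibroblast collagen gene COL1A1 was at 864 to 1100 FPKM in this line, so the summed level of that marker list, 864 and 867 FPKM after vehicle and 987 and 1100 FPKM after gemcitabine, was almost wholly COL1A1. The fitted difference of COL1A1 was 0.03 on the log2 scale (adjusted p = 0.740, edgeR), and its part in those results was not tested either.

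MYC fell most within the network, MXI1 and MGA fell with it, and MXD3 and MXD4 rose slightly. By the quasi-likelihood test of edgeR, adjusted over 14854 genes by the Benjamini-Hochberg method, 7 of the 10 genes were lower after gemcitabine at an adjusted p under 0.05 (MYC, MAX, MXI1, MNT, MLX, MLXIP and MGA), beside 20.0% of all genes tested. MXD3 and MXD4 were higher, beside 18.5% of all genes, and MXD1 did not pass. Of all genes that passed, 2750 were higher and 2975 lower with TMM scaling, and 4074 higher and 1977 lower with library totals, which left 5 members lower (without MAX and MLX) and the same 2 higher. With the added requirements of the study, a fold change over 1.5, a mean of at least 0.1 FPKM in 1 condition and a difference of at least 1 FPKM, MYC, MXI1 and MGA were called lower (4.43% of all genes). None was called higher (5.69% of all genes), although MXD3 and MXD4 also had an unadjusted p under 0.05. CPM values of the 2 conditions did not overlap for 9 of the 10 genes, against 69.7% of all genes. The members were listed with earlier results of these libraries known, so these shares describe the group and are no test of it.

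**Figure D1:**
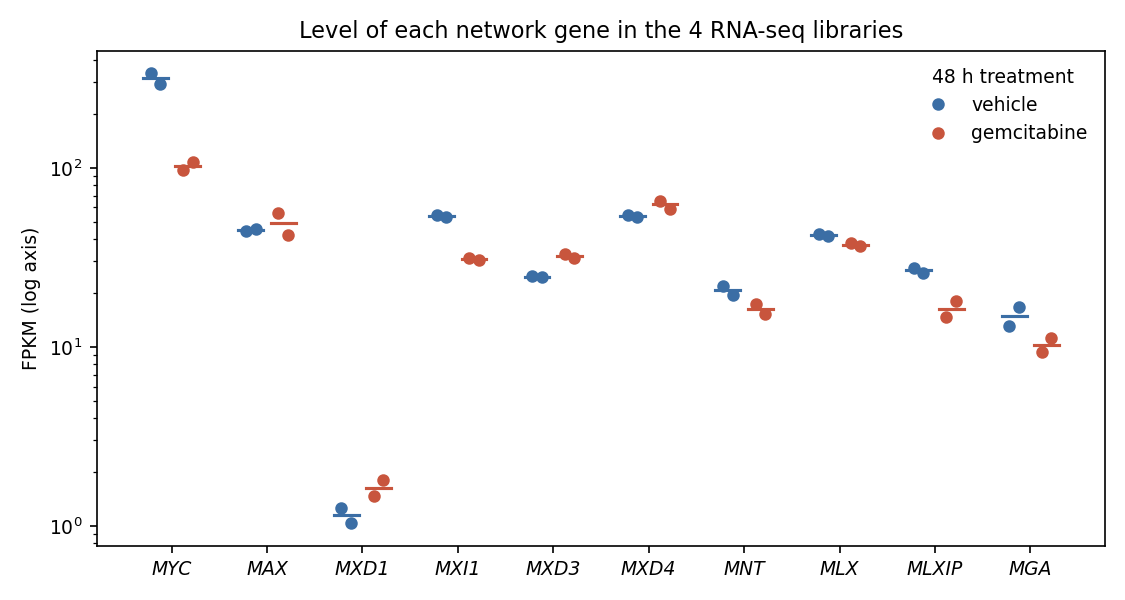
FPKM of each of the 10 genes (horizontal axis) on a log axis in the 2 vehicle (blue) and 2 gemcitabine (red) libraries, with points for libraries and bars for means. MYC lies highest in both conditions and drops from 337 and 294 to 96.6 and 108 FPKM, and MXD1 lies lowest, at 1.03 to 1.80 FPKM.

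MYC (ENSG00000136997, chromosome 8) had 10326 and 9836 fragments after vehicle and 2775 and 3034 after gemcitabine. Both treated libraries lay far below both vehicle libraries. MYC fell by 1.68 on the log2 scale (SE 0.08, adjusted p = 5.47e-09, edgeR), with a vehicle level 3.21-fold that after gemcitabine. Its decrease ranked 68 among the 14854 genes by size and its p-value ranked 5. Per length, MYC was at 316 ± 30.6 FPKM (SD, n = 2) after vehicle and 102 ± 7.83 FPKM (SD, n = 2) after gemcitabine, so its place among all tested genes moved from 370 to 1503. Each library pools many cells, and a lower level per cell and fewer cells with the message cannot be told apart.

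MAX, the shared dimer partner (chr14:65472892-65569413, minus strand), changed far less. It had 885 and 870 fragments after vehicle and 685 and 638 after gemcitabine, without overlap. The fitted change was -0.29 (SE 0.08, adjusted p = 0.00751, edgeR) on the log2 scale. The FPKM values, 44.3 and 45.5 after vehicle and 56.0 and 42.1 after gemcitabine, overlapped and gave a log2 difference of 0.11 in limma (adjusted p = 0.642). The direction for MAX thus depended on whether fragments or the isoform-based FPKM values were read. The decrease in fragments also missed the threshold when libraries were scaled by their totals (-0.18, adjusted p = 0.0759, edgeR) and without vehicle library 1 (adjusted p = 0.151) or 2 (adjusted p = 0.0648).

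The 5 genes that encode MAX-dependent repressors moved in different directions. MXI1 (chr10:111967363-112047123, plus strand), an MXD-family antagonist of MYC, had 1321 and 1389 fragments after vehicle and 595 and 703 after gemcitabine. Its decrease of 1.93-fold was the largest among the repressors (log2 change -0.95, SE 0.08, adjusted p = 1.30e-06, edgeR) and ranked 388 among all genes. MNT (chr17:2287367-2304398, minus strand), the broadly expressed repressor, had 811 and 846 fragments after vehicle and 599 and 528 after gemcitabine. MNT fell by 0.44 on the log2 scale (SE 0.08, adjusted p = 0.000621, edgeR), but did not pass on FPKM (adjusted p = 0.136, limma).

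MXD4 (chr4:2249159-2263836, minus strand) had 2314 and 2356 fragments after vehicle and 2684 and 2660 after gemcitabine, with close agreement within each condition. It rose by 0.31 on the log2 scale (SE 0.06, adjusted p = 0.00170, edgeR). MXD3 (chr5:176728462-176739758, minus strand), which is best known from cycling cells, had 350 and 347 fragments after vehicle and 413 and 374 after gemcitabine. Its rise of 0.29 (SE 0.10, adjusted p = 0.0278, edgeR) lay close to the threshold, and DESeq2 gave an adjusted p of 0.155. MXD3 no longer passed the adjusted p threshold without vehicle library 1 (log2 change 0.34), vehicle library 2 (0.26) or gemcitabine library 1 (0.23). MXD4 no longer passed it without vehicle library 2 (log2 change 0.30). Both rises kept their sign in the 13 alternatives tried for each, and neither passed on FPKM with limma (adjusted p = 0.192 for MXD4 and 0.0637 for MXD3).

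MXD1 (chr2:70124820-70170077, plus strand), a repressor induced in differentiating cells, had 194 and 213 fragments after vehicle and 206 and 182 after gemcitabine. The conditions overlapped, and the fitted difference was 0.05 on the log2 scale with a 95% interval from -0.22 to 0.31 (adjusted p = 0.802, edgeR). Its FPKM values, 1.25 and 1.03 after vehicle and 1.46 and 1.80 after gemcitabine, did not overlap but missed the threshold in limma (adjusted p = 0.234). MXD1 was the member with the lowest level in both conditions.

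MLX (chr17:40719090-40725257, plus strand), the partner of the glucose-responsive arm, had 988 and 1065 fragments after vehicle and 854 and 767 after gemcitabine. Its log2 change of -0.23 (SE 0.07, adjusted p = 0.0266, edgeR) was small and was lost with DESeq2 (adjusted p = 0.111), with library totals (0.249), with no filter on low counts (0.0601), on FPKM with limma (0.150 to 0.250 over 3 settings), and without vehicle library 1 (0.157), vehicle library 2 (0.234) or gemcitabine library 2 (0.0808). MLXIP (chr12:122516628-122631894, plus strand) had 885 and 1091 fragments after vehicle and 709 and 655 after gemcitabine. It fell by 0.42 on the log2 scale (SE 0.09, adjusted p = 0.00155, edgeR), and by 0.29 without vehicle library 2 (adjusted p = 0.0983). In FPKM, MLXIP went from 27.7 and 25.8 to 14.7 and 18.0, a larger difference than in fragments (log2 ratio of means -0.71).

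MGA (chr15:41913332-42065279, plus strand) had 2133 and 2275 fragments after vehicle and 1322 and 1354 after gemcitabine. It fell by 1.52-fold (log2 change -0.61, SE 0.07, adjusted p = 7.24e-06, edgeR). This lies just past the required fold of 1.5, so MGA lost its call, though not its adjusted p, without vehicle library 2 (log2 change -0.58), without gemcitabine library 1 (-0.57) and with library totals (-0.50). Cuffdiff marked MGA as failed in both gemcitabine libraries, where it was listed at 9.33 and 11.2 FPKM against 13.1 and 16.7 FPKM after vehicle. The mark is set for a gene in a library, so it stands beside the fragment counts as well as the FPKM values. The call of MGA also used the difference in mean FPKM, which rests on these marked values. On FPKM the difference of MGA did not pass (adjusted p = 0.113, limma).

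**Figure D2:**
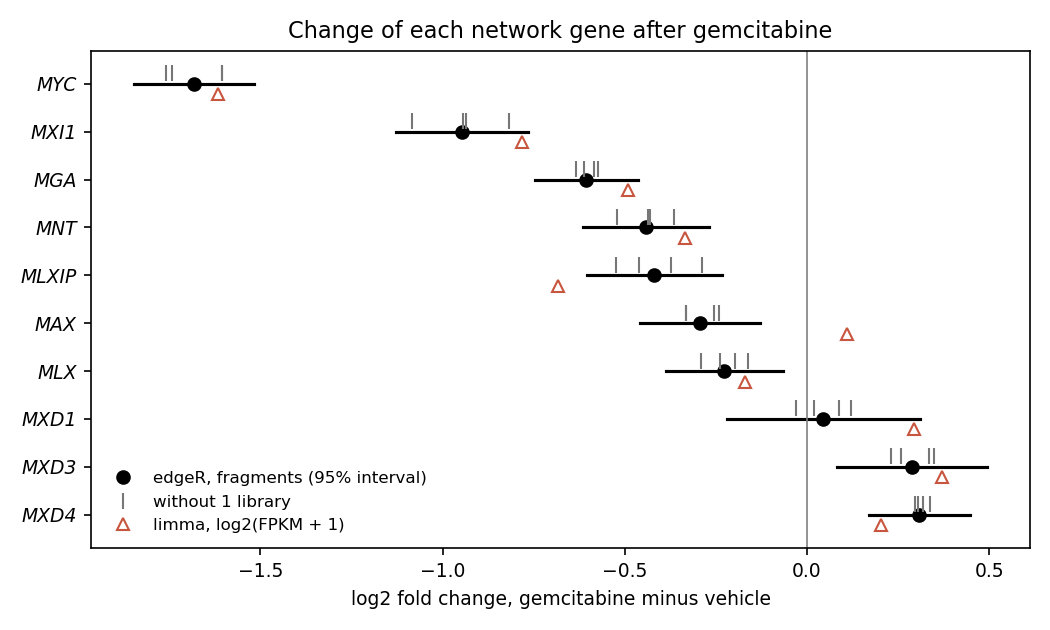
Log2 fold change (gemcitabine minus vehicle) of each gene from edgeR on fragments with its 95% interval (black), with 1 library left out (grey ticks) and from limma on FPKM (red triangles). MYC stands at -1.68, and MAX is the gene whose triangle lies across 0 from its black point.

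Levels per length put the members in an order that changed with treatment. After vehicle, mean FPKM descended from MYC over MXD4 and MXI1, whose ranges overlapped at 54.0 ± 1.08 and 53.9 ± 0.777 (SD, n = 2), to MAX, MLX, MLXIP, MXD3, MNT, MGA and MXD1. After gemcitabine the order was MYC, MXD4, MAX, MLX, MXD3, MXI1, MLXIP, MNT, MGA and MXD1, and the neighbors MXD3 and MXI1, and MLXIP and MNT, overlapped. MXI1 thus moved from level with MXD4 to 31.0 ± 0.360 FPKM (SD, n = 2), against 62.4 ± 4.54 FPKM (SD, n = 2) for MXD4.

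The balance of MYC message to repressor message was read as the FPKM of MYC over the summed FPKM of MXD1, MXI1, MXD3, MXD4 and MNT. It was 2.15 and 1.94 in the vehicle libraries and 0.650 and 0.780 in the gemcitabine libraries, so MYC went from above to below the sum. The sum itself was 157 and 152 FPKM after vehicle and 149 and 138 FPKM after gemcitabine. MYC over MAX went from 7.62 and 6.47 to 1.73 and 2.56 in FPKM. With 2 libraries per condition these ratios are given without a p-value.

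Within the repressor sum, the makeup shifted between members. MXI1 made up 34.7% and 35.2% after vehicle and 21.0% and 22.2% after gemcitabine. MXD4 went from 34.8% and 35.1% to 44.2% and 42.9%, and MXD3 from 15.8% and 16.1% to 22.2% and 22.6%. MNT held 14.0% and 12.9% after vehicle and 11.6% and 11.0% after gemcitabine, while MXD1 stayed between 0.683% and 1.30%. These are shares of message, not of protein.

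**Figure D3:**
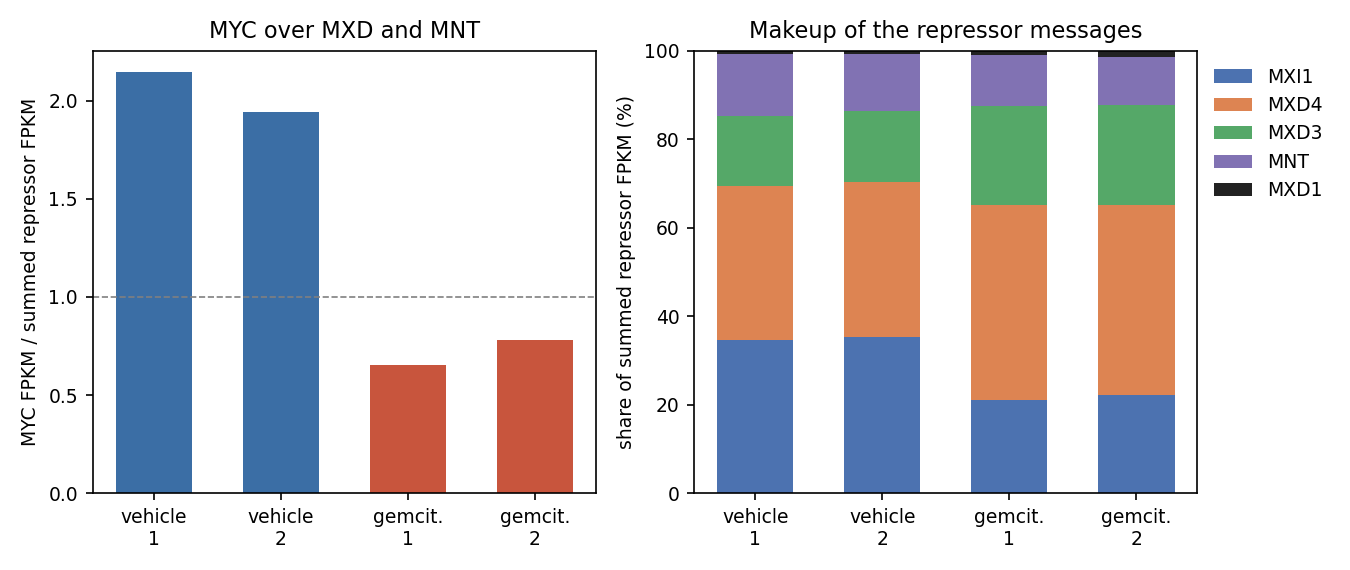
Left, MYC FPKM over the summed FPKM of the 5 repressors in each library, with a dashed line at a ratio of 1; right, the share of each repressor in that sum (%). The vehicle libraries stand at 2.15 and 1.94 and the gemcitabine libraries at 0.650 and 0.780, and the MXI1 share shrinks while those of MXD4 and MXD3 widen.

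Likeness of pattern was measured as the Euclidean distance between centred log2 CPM over the 4 libraries, among the 10000 genes averaging 10 CPM or more. Nearest to MYC were FJX1 (distance 0.106), HPDL (0.137) and BEND3 (0.149). FJX1 had 751 and 787 fragments after vehicle and 207 and 236 after gemcitabine. Nearest to MXD4, the member with the largest rise in edgeR on fragments, were ZNF646 (0.0116), TBC1D22B (0.0203) and SYNPO (0.0223). On FPKM the log2 ratio of means was larger for MXD1 (0.51) and MXD3 (0.38) than for MXD4 (0.21), and on fragments without gemcitabine library 2 MXD3 (0.35) exceeded MXD4 (0.30). With 4 libraries in 2 conditions, likeness mostly reads the size of the change.

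Genes known to be activated by MYC were mostly lower. Of 57 nucleolar and growth genes, 54 fell and 1 rose at an adjusted p under 0.05 (edgeR), and 30 were called lower. Of all genes tested, 20.0% fell, 18.5% rose and 4.43% were called lower. The median log2 change of the list was -0.62, against 0.0068 over all genes tested. The largest decreases were in NDUFAF4, a respiratory complex I assembly factor (235 and 278 fragments after vehicle, 87 and 70 after gemcitabine, log2 change -1.59), the uracil-DNA glycosylase gene UNG (1967 and 1997, then 589 and 665, -1.55) and the nucleolar RNA-binding gene RRP9 (403 and 433, then 140 and 146, -1.43). MAP3K6, a stress kinase gene, was the 1 that rose (503 and 495, then 582 and 596, 0.35, adjusted p = 0.00416, edgeR). PLK4 (0.07) and PHB1 (-0.05) did not pass.

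Of 31 tested metabolic and cell cycle genes activated by MYC, 24 fell, 2 rose and 14 were called lower. The shares of all genes were 20.0%, 18.5% and 4.43%. The median of the list was -0.53. CCND2 was too low to test. Nucleolin (NCL) had 16082 and 16676 fragments after vehicle and 6829 and 7741 after gemcitabine (-1.05), DKC1, the pseudouridine synthase of the telomerase and snoRNA particles, changed by -1.05, and SLC7A5, a transporter of large amino acids, by -1.03. The glucose transporter gene SLC2A1 rose by 0.34 (adjusted p = 0.000790, edgeR) and the thymidylate synthase gene TYMS by 0.23 (adjusted p = 0.0151, edgeR). E-boxes stood in the windows of 25 of 47 nucleolar and growth genes with a window (53.2%) and of 10 of 28 metabolic and cell cycle genes (35.7%), beside 12.2% of the 11460 tested genes with a window.

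Genes known to be repressed by MYC moved both ways. Of 15 tested, 6 rose, 4 fell and 5 did not pass, whereas 18.5% of all genes rose and 20.0% fell. With the added requirements, 4 were called higher and 0 lower, beside 5.69% and 4.43% of all genes. On log2(FPKM + 1) or log2(FPKM + 0.1) with limma, 5 rose and 0 fell, and without the FPKM filter 1 rose and 0 fell. The median of the list was 0.15, and GADD45G was too low to test. CDKN1A, which encodes the cyclin-dependent kinase inhibitor p21, had 1933 and 2056 fragments after vehicle and 4581 and 4458 after gemcitabine (log2 change 1.29, adjusted p = 1.57e-08, edgeR). CDKN2B, the gene of the inhibitor p15, rose by 1.10, and the receptor gene PDGFRB by 1.02. Among those that fell were CEBPA (80 and 71, then 39 and 26 fragments, -1.10), GAS1 (-0.38) and the cyclin D1 gene CCND1 (-0.36). CEBPA was low, at 2.06 and 1.69 FPKM after vehicle and 1.12 and 0.757 FPKM after gemcitabine, and was not called. The E-box stood in 1 of 10 of their windows.

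The cofactors of the network fell more often than they rose, mostly by less than 1.5-fold. For these and the lists below, the shares over all genes tested were 20.0% lower, 18.5% higher and 4.43% called lower. Of 12 SIN3 corepressor genes, 5 fell, 1 rose and 6 did not pass (median -0.11). SAP30, a SIN3 subunit, changed by -0.65, the deacetylase gene HDAC2 by -0.46 and SUDS3 by -0.28, whereas HDAC1 rose by 0.28 (adjusted p = 0.00377, edgeR). Of 13 further genes of the MGA complex PRC1.6, 8 fell and 1 rose (median -0.31), with WDR5 at -0.57, CBX3 at -0.54, the histone methyltransferase gene EHMT1 at -0.52, and RYBP up by 0.25. None of these 13 was called, and CBX3 also stands in the list of nucleolar and growth genes.

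Of 14 MYC coactivator genes, 9 fell and 1 rose (median -0.29). EP400 changed by -0.60, TRRAP, the scaffold of MYC-bound acetyltransferases, by -0.45 and CREBBP by -0.38, and the kinase gene CDK9 rose by 0.21 (adjusted p = 0.0327, edgeR). Of 15 genes that act on MYC protein turnover, 7 fell and 1 rose (median -0.24). SET, an inhibitor of the phosphatase PP2A, changed by -0.78, and the deubiquitinase genes USP36 and USP28 by -0.67 and -0.44, while CIP2A, another PP2A inhibitor, rose by 0.26. FBXW7, the ubiquitin ligase subunit that marks MYC for degradation, had 196 and 221 fragments after vehicle and 188 and 172 after gemcitabine and did not pass (adjusted p = 0.571, edgeR). It is given outside the rule for named genes and was chosen after its values were seen.

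Of 13 genes whose products bind the MYC gene or MYC mRNA, 9 fell, none rose and 4 were called lower (median -0.39). However, 2 passed as higher with library totals, edgeR's filterByExpr or a replicate block by the table index. With limma on FPKM, at either pseudocount with the filter, 1 passed as higher. FUBP1, which binds an upstream element of MYC, changed by -0.68, the insulator gene CTCF by -0.68 and the AU-rich element binder HNRNPD by -0.63. In the glucose-responsive arm, 2 of 4 targets fell. HK2, a hexokinase gene, is also listed among the nucleolar and growth genes. It had 1281 and 1248 fragments after vehicle and 479 and 520 after gemcitabine (-1.23, adjusted p = 1.10e-07, edgeR). PFKFB3 changed by -0.35 (adjusted p = 0.00363, edgeR). In FPKM, PFKFB3 was at 23.9 and 31.9 after vehicle and 27.8 and 38.1 after gemcitabine, so its decrease was seen in fragments only. KLF10 (-0.06) and ARRDC4 (0.05) did not pass, and TXNIP was not analysed here. The counts for these smaller lists depended on the unit and on the vehicle libraries. On FPKM with limma, at either pseudocount, the genes that fell numbered 0 for SIN3, 2 for PRC1.6, 0 for the coactivators, 2 for MYC turnover, 5 for the MYC binders, 0 for genes repressed by MYC and 1 for the glucose-responsive targets, and without the filter 0 for each. Library totals gave 2 for SIN3, DESeq2 and no filter on low counts each gave 6 for the coactivators, and under both the single rises of PRC1.6 and of the coactivators were lost. Without vehicle library 1, the genes that fell numbered 2 for SIN3, 5 for PRC1.6, 4 for the coactivators, 4 for MYC turnover, 1 for genes repressed by MYC and 1 for the glucose-responsive targets. Without vehicle library 2 the first 4 of these lists gave 2, 5, 4 and 3, and without either library none of their single rises passed. Of the other network factors, MYCL (2 to 8 fragments) and MLXIPL (149 to 230 fragments) did not pass and MYCN was too low to test.

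**Figure D4:**
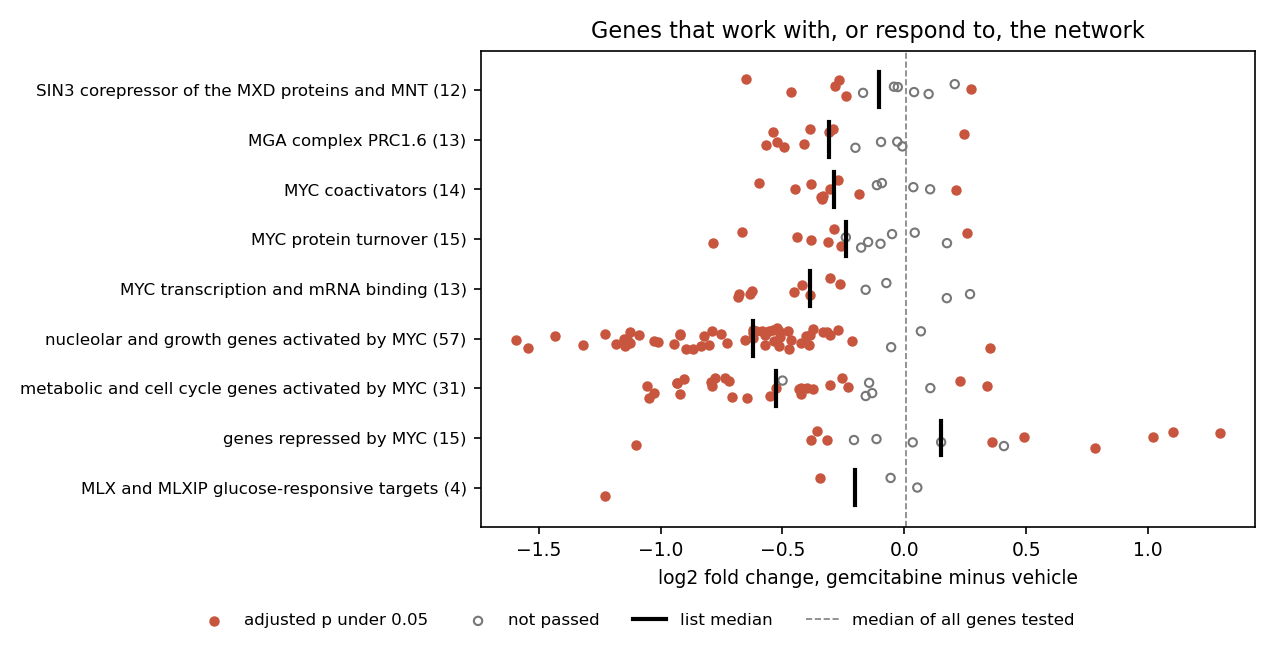
Log2 fold change (gemcitabine minus vehicle) of every tested gene in 9 lists of cofactors and targets, with the number tested in brackets, filled where the adjusted p is under 0.05, a bar at the list median and a dashed line at the median of all genes. The nucleolar and growth genes center on -0.62, and the genes repressed by MYC spread from -1.10 to 1.29.

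Open chromatin was present at the starts of 6 of the 10 genes in each condition (MYC, MXD1, MXD3, MXD4, MNT and MGA), counting a DNaseI peak within 1 kb of any annotated start. Of all 14154 genes with a position, 27.8% had such a peak after vehicle and 32.2% after gemcitabine. MAX, MXI1, MLX and MLXIP had none within 1 kb in either library. A missing peak does not show closed chromatin, since the paper added published PANC1 peaks to detect more open regions. With 1 library per condition, of 9606 peaks after vehicle and 10695 after gemcitabine, differences between conditions have no replicate check. The score of a peak grows as its MACS p-value falls, moves with depth, and had a minimum of 50, the score of the cutoff p-value of 1e-05.

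The peak over the MYC start scored 63.7 after vehicle and 72.8 after gemcitabine, and the peak near the end of the gene scored 110 and 115, so MYC kept both peaks in the treated library while its message was lower. At MXD4 the peak over the start scored 67.2 after vehicle and 140 after gemcitabine. It covered the printed E-box stretch in both conditions, as did the MNT peak, which scored 83.4 after vehicle and 55.2 after gemcitabine. The printed MLX stretch lay in no peak.

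MXD1 had its peak at a start inside the annotated gene, with scores of 88.9 and 124. MXD3 carried a peak with scores of 67.4 and 72.5, which reached the 5′ end of the gene after gemcitabine and only an annotated start inside the gene after vehicle. MGA had the highest score of the group at its first start, 151 after vehicle and 210 after gemcitabine. A further peak, at chr15:41952364-41953380 over another annotated start of MGA, was listed after gemcitabine only, with a score of 70.6.

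**Figure D5:**
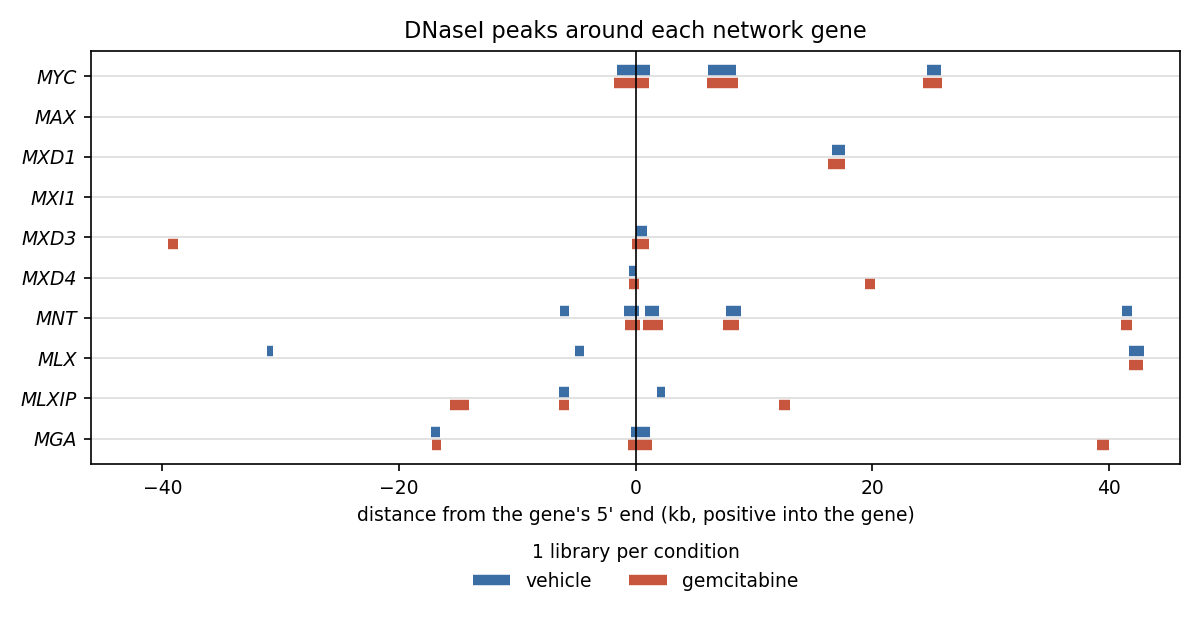
DNaseI peaks (bars, drawn to length) of the vehicle (blue) and gemcitabine (red) library around each gene, by distance in kb from its 5′ end. MYC, MXD4, MNT and MGA carry a peak at 0 in both, MXD3 in the gemcitabine library with the vehicle peak just inside the gene, MXD1 carries one inside the gene, and MAX and MXI1 have none in the plotted range.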

How the data were processed

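RNA was extracted from PANC1 cells and sequenced as single-end reads. Alignment to hg19 was done by the authors in TopHat2 (2.0.8), followed by Cuffdiff (2.0.2) with the protein-coding part of a Gencode annotation. The deposited table holds, for each gene and library, estimated counts of fragments and FPKM values that the authors obtained by summing over isoforms. FPKM values therefore depend on how fragments were shared among isoforms of different length, and the fragment counts do not. The deposited DNaseI score is the MACS p-value on a negative log10 scale times 10 (cutoff 1e-05), and the MACS version is not given in the sources used here.

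Estimated counts were rounded to whole numbers (86.8% were whole within 1e-06), genes under 10 fragments summed over the 4 libraries were dropped, and edgeR (4.0.16, R 4.3.3) was run with TMM factors (0.959 to 1.05), the quasi-likelihood test and Benjamini-Hochberg adjustment over 14854 genes. Cuffdiff was not rerun. Of 20461 genes, 19619 were named by Ensembl identifier and 842 had no name. The script was tested on simulated data. The libraries of a condition differed beyond sampling noise (chi-square averaged over genes 2.17 for vehicle and 5.16 for gemcitabine). The replicate index of the table could not be tied to the replicate numbers in the labels, so library numbers are names only. The table's 2 further value columns, which hold other scalings of the fragments, were not used.

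Alternatives were DESeq2 (1.42.0), other scalings and filters, limma (3.58.1) on log2(FPKM + 1) or log2(FPKM + 0.1), each library left out, and a replicate block. Gene positions came from Gencode lifted to hg19, and promoter windows from RefSeq (GRCh38.p14) by exact match to hg19. MYC had no window and no sequence of it is shown. Counting floors cover counting error only. Named genes were all members, every gene of lists of up to 5, and otherwise the 3 largest rises and falls past adjusted p 0.05 without overlap between conditions. The members and lists were chosen with earlier results of these data known.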

Additional observations from a re-analysis of the deposited data

How the results depend on the processing

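Of 130 refits of the 10 genes, 95 kept their side of the threshold, 1 of them with the other sign (MXD1 without gemcitabine library 1, -0.03), 32 kept direction but crossed it, and 3 that had passed reversed. These 3 were MAX on FPKM with limma, at 0.11 for log2(FPKM + 1) with or without the filter and 0.11 for log2(FPKM + 0.1), against -0.29 on fragments. MXD1, which passed under none, ranged from -0.03 to 0.48. On FPKM with limma, 3 members (MYC, MXI1 and MLXIP) were lower with either pseudocount and 1 without the filter (MXI1, also the 1 called lower), and 0 were higher. MYC was then at -1.62 (adjusted p = 0.0679) without the filter, and over all 13 alternatives lay between -1.76 and -1.57. DESeq2 and an adjusted p under 0.01 each left 1 member higher. Leaving out 1 library gave 4 to 7 members lower, 4 without vehicle library 2, and 0 to 2 higher.

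Of the nucleolar and growth genes, limma counted 32 lower with either pseudocount and 2 without the filter, and 0 higher with log2(FPKM + 1), filtered or not. Without 1 library, 0 to 1 were higher, with 0 without vehicle library 2. Of the metabolic and cell cycle genes, limma without the filter counted 1 lower and 0 higher, with the filter 1 higher for either pseudocount, and leaving out 1 library gave 0 to 2 higher, with 1 without vehicle library 1 and 0 without vehicle library 2. A vehicle library left alone was assumed to vary like the gemcitabine pair. Scaling by library totals moved the median log2 change of all genes from 0.0068 to 0.12 and MYC to -1.57, with 5 members lower and 2 higher. At a score of at least 100, DNaseI peaks stood at 1 member after vehicle and 3 after gemcitabine. The cause of these differences was not tested.

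With a replicate block by the table index, MYC was at -1.68 and 7 members were lower and 2 higher, and no member crossed the threshold. The block is no pairing known from the design, since deviations of same-numbered libraries correlated at -0.051 over 12843 genes. The effect of depth on the small changes of MAX, MLX and MXD3 was not tested.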
